A study of Mus musculus with 2 samples.

Results

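The barcodes described here are the gene-rich barcodes with a high mitochondrial share, that is, droplets with at least 500 detected genes in which at least 10% of the unique molecular identifiers (UMIs) came from the 13 mitochondrially encoded mRNAs. They were thus selected on their measured gene number and mitochondrial share, and they numbered 457 of the 4993 barcodes in the deposited tables, and of the 3791 barcodes with at least 500 genes. The other 3334 gene-rich barcodes, all under 10%, are called low-mitochondrial below. Each barcode was placed in the panel with the largest UMI sum: lymphatic (Ccl21a, Prox1, Lyve1, Flt4, Mmrn1), blood vascular (Flt1, Plvap, Emcn, Gpihbp1, Cd34), melanoma (Dct, Pmel, Mlana, Tyrp1) or phagocyte (C1qa, C1qb, Tyrobp, Lyz2). Of the high-mitochondrial barcodes, 73 were lymphatic, 106 blood vascular, 253 melanoma and 10 phagocyte; in the Cre plus and Cre minus libraries 7 and 4 were tied between panels and 3 and 1 had no panel UMI.

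The study profiled single cells sorted from skin tumors of mice with the 10x Genomics 3′ assay, comparing hosts with and without a Cre whose genotype name joins the interferon-gamma receptor gene Ifngr1 to Prox1. The labels do not spell out the alleles or what drives the Cre. Prox1 encodes the transcription factor that sets lymphatic endothelial fate. The groups were Ifngr1iProx1 (Cre plus) mice and Ifngr1WT (Cre minus) mice. All carried the same B16F10-OVALBUMIN/VEGFC melanoma, a tumor line that makes ovalbumin and the lymphatic growth factor VEGF-C, implanted in the skin and harvested on day 15. In each genotype 3 tumors were pooled, digested with collagenase IV and DNase I, sorted as DAPI−, CD31+, CD45− cells and made into 1 library. With 1 library per genotype there is no replicate of a condition, and all intervals given are 95% intervals that cover counting error only.

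The mitochondrial genome encodes subunits of the respiratory chain and of ATP synthase, and their mRNAs stay inside the organelle, whereas most other mRNAs counted by a 3′ assay lie in the cytoplasm. A high mitochondrial share is widely used as a sign of a stressed or leaky cell, and it is also met in cells rich in mitochondria. Malat1 is a long noncoding RNA that is abundant and is kept in the nucleus. It serves as a gauge of how much nuclear RNA a droplet holds.

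The 2491 barcodes of the Cre plus library held 66704257 UMIs and the 2502 of the Cre minus library 76967583. High-mitochondrial barcodes held 1172816 and 3571055 UMIs. The libraries shared 1 barcode sequence, and 0 among the high-mitochondrial ones. No doublet caller was run. In 7 Cre plus and 22 Cre minus high-mitochondrial barcodes the leading panel sum was under 3 times the next. It was under 5 UMIs in 30 of 154 Cre plus and 23 of 303 Cre minus ones, counting those tied or without a panel UMI. Ifngr1 itself had 3 UMIs in lymphatic high-mitochondrial barcodes of Cre plus and 2 in those of Cre minus, too few to check the genotype. A further 314 and 430 barcodes passed 10% with under 500 genes and are not members.

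High-mitochondrial barcodes made up 7.95% (6.79 to 9.25) of gene-rich barcodes in Cre plus and 16.3% (14.7 to 18.1) in Cre minus. Among lymphatic barcodes the share was 5.54% (50 of 902, 4.14 to 7.24) in Cre plus and 8.68% (23 of 265, 5.58 to 12.7) in Cre minus. Among blood vascular barcodes it was 9.0% (26 of 289, 5.96 to 12.9) in Cre plus and 22.7% (80 of 353, 18.4 to 27.4) in Cre minus. The intervals of the blood vascular share did not overlap between libraries, nor did those of the melanoma share and of all gene-rich barcodes. Those of the lymphatic and phagocyte shares did overlap. Among melanoma barcodes the share was 10.6% (66 of 624, 8.28 to 13.3) in Cre plus and 16.8% (187 of 1111, 14.7 to 19.2) in Cre minus. Among phagocyte barcodes it was 2.99% (2 of 67, 0.364 to 10.4) in Cre plus and 9.09% (8 of 88, 4.01 to 17.1) in Cre minus. The share was lower in Cre plus in all 4 panels. Each value is that of 1 library, so genotype, pool, digestion and sort cannot be told apart.

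**Figure D1:**
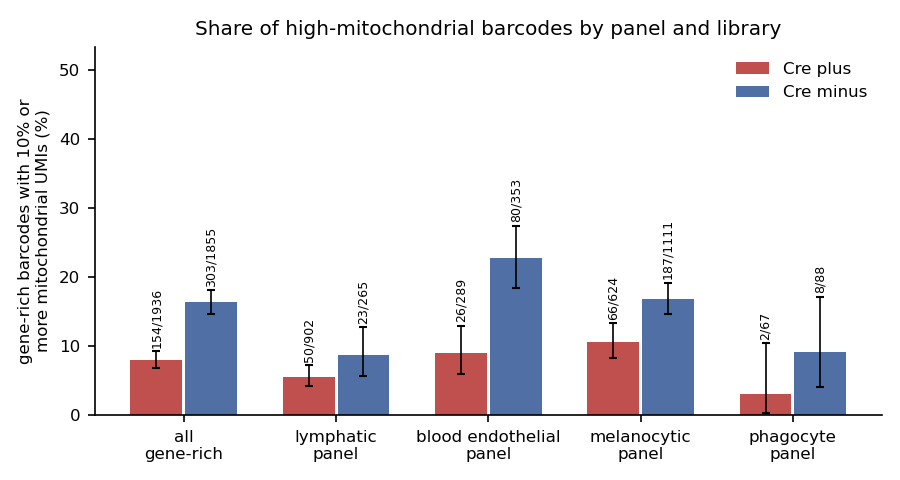
Share of gene-rich barcodes with at least 10% mitochondrial UMIs (vertical axis, percent), over all barcodes and by panel, in the Cre plus and Cre minus libraries; bars are shares, lines are 95% Clopper-Pearson intervals and the labels over them give members over all gene-rich barcodes. The Cre plus bar is the lower one in every panel. The blood vascular intervals, 5.96 to 12.9% and 18.4 to 27.4%, do not overlap, nor do those of the melanoma panel and of all barcodes.

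The panels were unequally represented. In Cre plus, 32.5% of high-mitochondrial barcodes were lymphatic, against 47.8% of low-mitochondrial ones; in Cre minus the shares were 7.59% and 15.6%. Blood vascular barcodes were 16.9% of the high-mitochondrial and 14.8% of the low-mitochondrial ones in Cre plus, and 26.4% and 17.6% in Cre minus. Melanoma barcodes were 42.9% and 31.3% in Cre plus, and 61.7% and 59.5% in Cre minus. In a library sorted on CD31, the largest number of high-mitochondrial barcodes thus carried melanoma transcripts.

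The members were shallow. Lymphatic high-mitochondrial barcodes had a median of 2060 UMIs and 943 genes in Cre plus, against 12961 UMIs and 3682 genes in low-mitochondrial ones. In Cre minus they had 2608 UMIs and 947 genes, against 5406.5 UMIs and 1584.5 genes. Blood vascular members had 2546 UMIs against 13820 in Cre plus, and 2870 against 9169 in Cre minus. Melanoma members had 5397.5 UMIs against 15866.5 in Cre plus, and 7655 against 17473.5 in Cre minus. After each barcode was thinned to 1000 nuclear-encoded UMIs, lymphatic members showed a median of 673 genes against 686 in Cre plus (37 of the 50 members were deep enough), and 582 against 559.5 in Cre minus (22 of 23). Thinned melanoma members showed 568 genes against 626.5 in Cre plus (62 members), and 585 against 632 in Cre minus (181 members), so in the melanoma panel fewer genes were seen at equal depth in both libraries.

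How far members lay above the threshold differed by panel. The median mitochondrial share of members was 18.2% in the Cre plus and 21.3% in the Cre minus library for lymphatic barcodes, and 20.6% and 20.9% for blood vascular ones. For melanoma it was 18.3% in the Cre plus and 32.0% in the Cre minus library, with upper quartiles of 51.5% and 65.1% and maxima of 90.2% and 92.1%. At least 50% of all UMIs were mitochondrial in 18 Cre plus and 68 Cre minus melanoma barcodes, against 1 and 2 lymphatic and 1 and 5 blood vascular ones. In low-mitochondrial barcodes the medians lay between 1.63% and 2.55% in these panels. Just inside the threshold, at 10 to 11%, there were 5 Cre plus melanoma barcodes with a median of 2206 UMIs, and just outside it, at 9 to 10%, there were 10 with 6509. In Cre minus melanoma there were 15 inside with 7566 UMIs and 26 outside with 11165. In Cre plus lymphatic barcodes there were 5 on each side, with 3025 UMIs inside and 1950 outside.

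**Figure D2:**
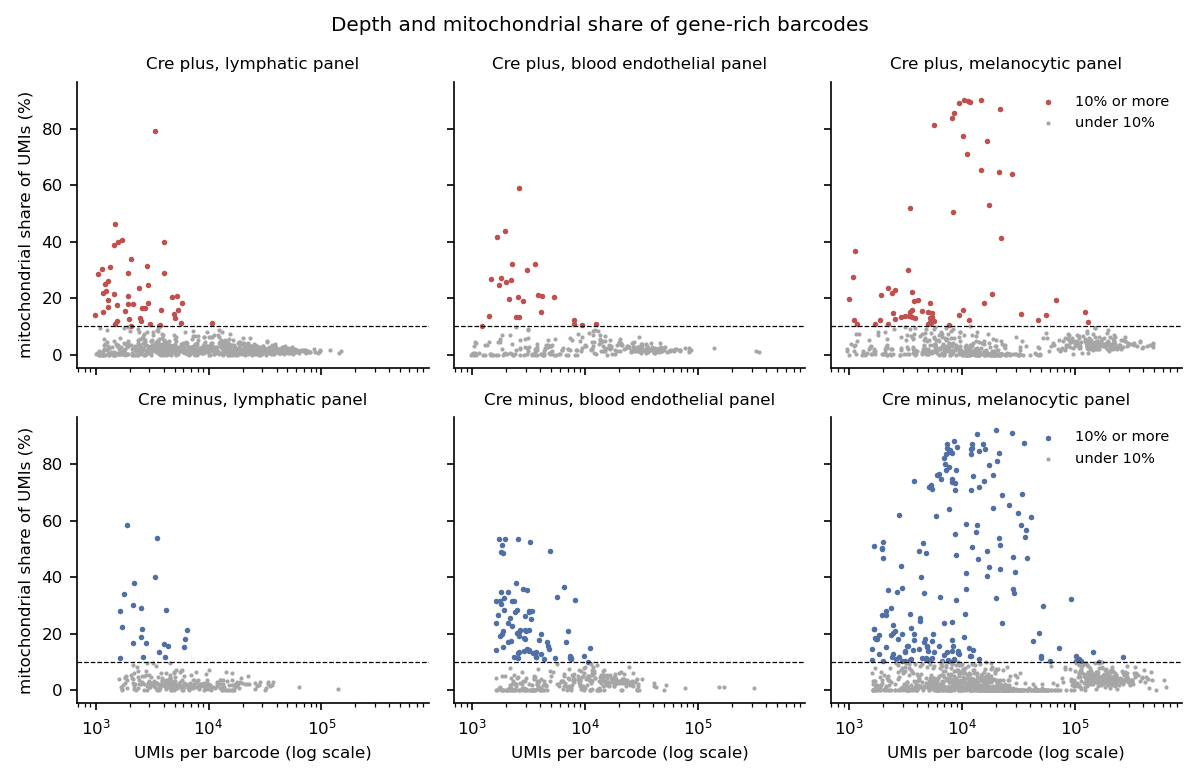
Each gene-rich barcode by its UMIs (horizontal axis, log scale) and the share of them that were mitochondrial (vertical axis, percent), for the lymphatic, blood vascular and melanoma panels, with the Cre plus library above the Cre minus one; the dashed line is the 10% threshold. Members sit at low depth in the endothelial panels, and only the melanoma panel has a sizeable group at 50% or more (18 Cre plus and 68 Cre minus barcodes).

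The mitochondrial mRNAs kept nearly the same proportions among themselves. mt-Cytb, the gene for cytochrome b of complex III (chromosome M, 14145 to 15288, mm10), was 9.86% of mitochondrial UMIs in lymphatic members and 9.96% in low-mitochondrial barcodes of Cre plus, and 10.6% and 10.3% in Cre minus. In melanoma members it was 15.8% against 15.7% in Cre plus, and 15.9% against 16.7% in Cre minus. mt-Co1, which encodes the catalytic subunit of complex IV, was a smaller part in members of all 3 panels in both libraries. For lymphatic members it was 20.7% against 22.2% in Cre plus and 18.5% against 21.6% in Cre minus. For melanoma members it was 13.1% against 15.8% in Cre plus and 11.7% against 14.1% in Cre minus. mt-Atp6, a membrane subunit of ATP synthase, went the other way in all 6 comparisons, at 23.6% against 21.5% in Cre plus melanoma and 19.2% against 17.1% in Cre minus lymphatic barcodes. mt-Co3, another complex IV subunit, was also a larger part in all 6, at 15.5% against 14.5% in Cre plus blood vascular and 10.9% against 9.63% in Cre minus melanoma barcodes. Differences of the mt-Co1 share ran from −0.69 to −3.08 percentage points, and no other of the 13 mRNAs differed by more than the 2.14 points of mt-Atp6 in Cre plus melanoma barcodes.

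For the nuclear-encoded genes, UMIs were summed over the members of a panel and over its low-mitochondrial barcodes in each library and expressed as CPM, the UMIs of a gene scaled to a fixed total of nuclear-encoded UMIs per pool, so the mitochondrial UMIs themselves do not dilute the values. A gene is called higher or lower where it was past 2-fold in the same direction in both libraries and had an expected count of at least 20 in each pool of members, at the rate of members and low-mitochondrial barcodes together. That rate is set mostly by the deeper low-mitochondrial pools. Because members and low-mitochondrial barcodes were separated by a measured share, these ratios describe the split and are not tested. In the lymphatic panel 402 genes passed the count filter, of which 16 (3.98%) were higher and 39 (9.7%) lower. The median log2 ratio of all 402 was −0.66 in the Cre plus and −0.31 in the Cre minus library; taken relative to that median, 53 were higher and 5 lower. The high pools were small, with 107777 nuclear UMIs in the Cre plus and 56861 in the Cre minus library, against 16783623 and 2122737 in low-mitochondrial barcodes.

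The most abundant of the higher transcripts in the lymphatic panel was Gm42418, a noncoding gene model on chromosome 17 (39846958 to 39848788, plus strand) that overlaps a ribosomal RNA repeat. It had 37865 CPM in members and 4450 CPM in low-mitochondrial barcodes of Cre plus, and 28209 and 6711 CPM in those of Cre minus, log2 ratios of 3.09 and 2.07. AY036118, on the opposite strand within it (39847113 to 39848035), had 2153 against 669 CPM in Cre plus and 4449 against 1393 CPM in Cre minus. The sources used here do not give whether counting used strand, so reads of these overlapping models cannot be told apart. Also higher were 3 protein-coding genes. Camk1d, a calcium/calmodulin-dependent kinase (chromosome 2, 5293457 to 5714515), had 2236 against 286 CPM in Cre plus and 2638 against 505 CPM in Cre minus, log2 ratios of 2.97 (2.77 to 3.15) and 2.38 (2.13 to 2.63). Lars2, the mitochondrial leucyl-tRNA synthetase (chromosome 9, 123366927 to 123462666), had 1772 against 288 CPM in Cre plus and 1882 against 371 CPM in Cre minus. Cmss1, a small ribosomal subunit homolog (chromosome 16, 57302000 to 57606864), had 4825 against 864 CPM in Cre plus and 5100 against 1436 CPM in Cre minus. In both libraries the members were the higher group for all 5 transcripts.

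The other named lymphatic genes that were higher encode proteins of the cell surface, of the secretory route and of the matrix. Stab1, a scavenger receptor of lymphatic and sinusoidal endothelium (chromosome 14, 31139013 to 31168641), had 1624 against 529 CPM in Cre plus and 2744 against 499 CPM in Cre minus, log2 ratios of 1.62 (1.39 to 1.83) and 2.46 (2.21 to 2.70). Fn1, which encodes fibronectin (chromosome 1, 71585520 to 71653200), had 3795 against 1660 CPM in Cre plus and 6437 against 1905 CPM in Cre minus. Mrc1, the mannose receptor that lymphatic endothelium shares with macrophages, had 1188 against 520 CPM in Cre plus and 1337 against 476 CPM in Cre minus. Members were thus above low-mitochondrial barcodes for both receptors in both libraries. Plxnd1, a semaphorin receptor, had log2 ratios of 1.23 in the Cre plus and 1.41 in the Cre minus library. Col18a1, the collagen from which endostatin is cut, had 1.20 and 1.44, and Mmp14, a membrane-bound metalloproteinase, had 1.09 and 1.38. Ctsd, the lysosomal protease cathepsin D, had 1.18 and 1.15. Pecam1, which encodes CD31, the protein used for the sort, had 854 against 401 CPM in Cre plus and 950 against 374 CPM in Cre minus. Angpt2, a secreted ligand of the Tie2 receptor, had 854 against 403 CPM in Cre plus and 1337 against 416 CPM in Cre minus, and Flt4 (VEGFR-3), a gene of the panel that placed the barcodes, had log2 ratios of 1.26 and 1.18.

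The named lower genes encode mostly small cytosolic and nuclear proteins. Ptma, which encodes prothymosin alpha, a small acidic nuclear protein (chromosome 1, 86526726 to 86530712), had 937 against 2494 CPM in Cre plus and 616 against 2167 CPM in Cre minus, log2 ratios of −1.41 (−1.71 to −1.13) and −1.82 (−2.34 to −1.34). Ran, the GTPase of nuclear transport, had 195 against 677 CPM in Cre plus and 176 against 641 CPM in Cre minus. Hint1, a nucleotide hydrolase, had 251 against 692 CPM in Cre plus and 176 against 733 CPM in Cre minus. All 3 were lower in members of both libraries. Hmgb1, a chromatin protein, had log2 ratios of −1.53 in the Cre plus and −1.28 in the Cre minus library, and H3f3b, which encodes histone H3.3, had −1.85 and −1.38. The actin-binding Pfn1 (profilin) had −1.30 and −1.26, and the tubulin gene Tuba1a −1.13 and −1.57. Btf3, a subunit of the nascent polypeptide complex, had −1.77 and −1.32, and Eif5a, a translation factor, −1.36 and −1.28. Calm2, a calmodulin gene, had −1.28 and −1.84, and S100a11, a calcium-binding protein, −1.11 and −1.56. Chchd2, which encodes a protein of the mitochondrial intermembrane space made in the cytosol, had 353 against 877 CPM in Cre plus and 299 against 861 CPM in Cre minus. This nuclear gene for a mitochondrial protein was thus lower where the mitochondrial transcripts were higher by rule. Lars2, another such gene, went the other way, with log2 ratios of 2.62 in the Cre plus and 2.34 in the Cre minus library.

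**Figure D3:**
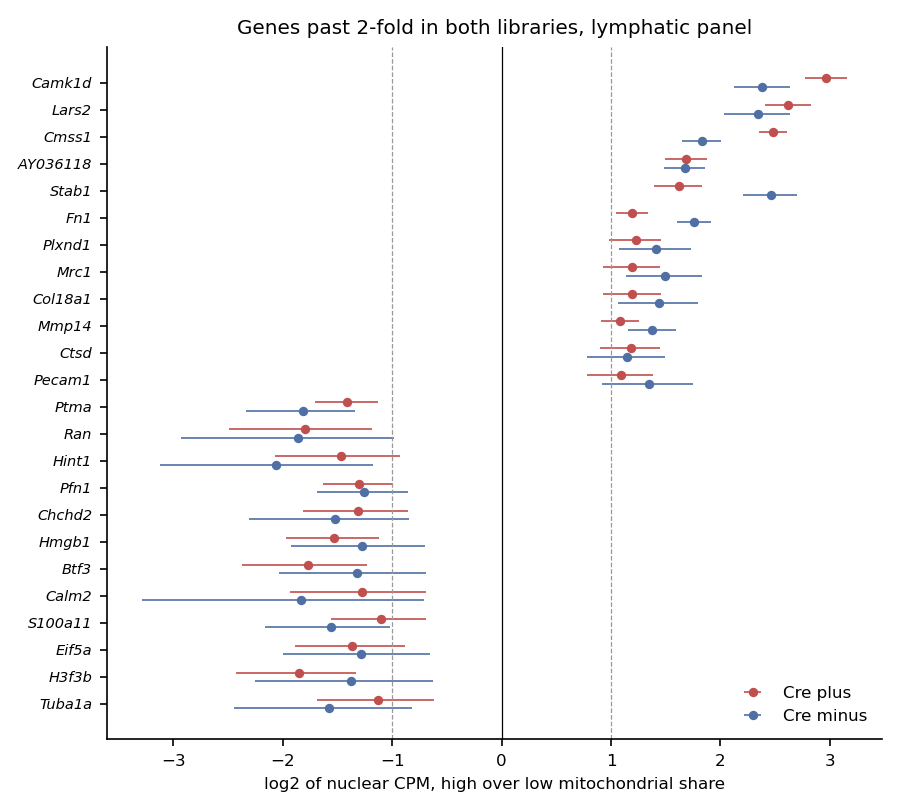
Log2 ratio of CPM in high-mitochondrial over low-mitochondrial lymphatic barcodes for the 12 highest and 12 lowest genes under the naming rule, in the Cre plus and Cre minus libraries; lines are 95% counting intervals and dashed lines mark 2-fold. Points of both libraries lie on the same side for every gene because the call requires it. Camk1d lies at 2.97 and 2.38 and Ran at −1.80 and −1.87.

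Transcripts translated at the endoplasmic reticulum stood above the median of all tested genes in the lymphatic panel. Of 20 listed secretory and matrix genes, 10 passed the count filter, 3 were higher (Fn1, Col18a1 and Ctsd) and none lower; 9 of the 10 were above 0 in both libraries. Their median log2 ratio was 0.81 in the Cre plus and 1.26 in the Cre minus library, and their summed level was 17174 against 9484 CPM in Cre plus and 25044 against 9891 CPM in Cre minus. Sparc, a secreted matrix glycoprotein, had 2199 against 1385 CPM in Cre plus and 4168 against 2014 CPM in Cre minus, short of 2-fold in Cre plus. Of 17 listed chaperones and targets of the unfolded protein response, 5 passed, all above 0 in both libraries, and 1 was higher, Canx (calnexin, log2 ratios of 1.05 and 1.29), named after its values were seen. The chaperone Hsp90b1 had 1021 against 573 CPM in Cre plus and 1653 against 454 CPM in Cre minus, and Hspa5 (BiP) 798 against 545 and 1354 against 383 CPM. The lysosome list had 5 of 17 genes past the filter, of which Ctsd was higher, with a median of 0.49 in the Cre plus and 1.15 in the Cre minus library. Of 14 genes of MHC class I presentation, 4 passed and none was called. Their membrane-bound or secreted members B2m (0.25 and 0.57), H2-D1 (0.62 and 0.76) and H2-K1 (0.58 and 1.31) were above 0 in both libraries, while Psme1, a cytosolic proteasome activator, had −0.68 in the Cre plus and −1.41 in the Cre minus library.

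Lists of cytosolic proteins lay on the other side. Of 13 cytoskeleton genes, 11 passed, all below 0 in both libraries, and 2 were lower (Pfn1 and Tuba1a); the median was −0.97 in the Cre plus and −0.76 in the Cre minus library. Actb, beta-actin, had 4853 against 8187 CPM in Cre plus and 4238 against 9146 CPM in Cre minus, and Tmsb4x, thymosin beta 4, had 4175 against 8180 and 8055 against 11259 CPM. Of 90 ribosomal protein genes, 80 passed, 75 of them below 0 in both libraries and 1 called lower (Rps27l, a paralog of a ribosomal protein gene, with log2 ratios of −1.22 and −1.98, named after its values were seen). Their sum was 96718 against 173134 CPM in Cre plus and 178505 against 215616 CPM in Cre minus. Relative to the median of all genes the ribosomal protein median was −0.21 in the Cre plus and 0.06 in the Cre minus library, so its direction depended on that scaling. Of 80 nuclear-encoded genes of oxidative phosphorylation, 27 passed, 26 of them below 0 in both libraries, and 3 were lower, a share near the 9.7% of all genes, with a median of −0.94 in the Cre plus and −0.71 in the Cre minus library. Those 3 were Uqcrb of complex III (186 against 422 CPM in Cre plus, 158 against 484 CPM in Cre minus) and the ATP synthase subunits Atp5h (−1.13 and −1.61) and Atp5md (−1.32 and −1.08). Cox4i1 of complex IV had 603 against 836 CPM in Cre plus and 897 against 1053 CPM in Cre minus.

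Stress lists gave few calls in lymphatic members. Of 12 heat shock genes 3 passed and none was called (median −0.58 in the Cre plus and −0.71 in the Cre minus library), and of 22 genes of glycolysis and hypoxia 8 passed and none was called. Of 15 genes against oxidative stress 3 passed and 2 were lower, Txn1 (thioredoxin, −1.04 and −1.45) and Gpx4 (a lipid peroxidase, −1.13 and −1.23). No gene of the lists for the integrated stress response, p53 targets, apoptosis or immediate early response passed the filter, so none of them could be called. The summed apoptosis list had 1438 against 1908 CPM in Cre plus and 1284 against 1745 CPM in Cre minus. Immediate early genes summed to 585 CPM in members (63 UMIs) against 1783 CPM in Cre plus. In Cre minus they summed to 703 CPM (40 UMIs) against 1106 CPM.

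**Figure D4:**
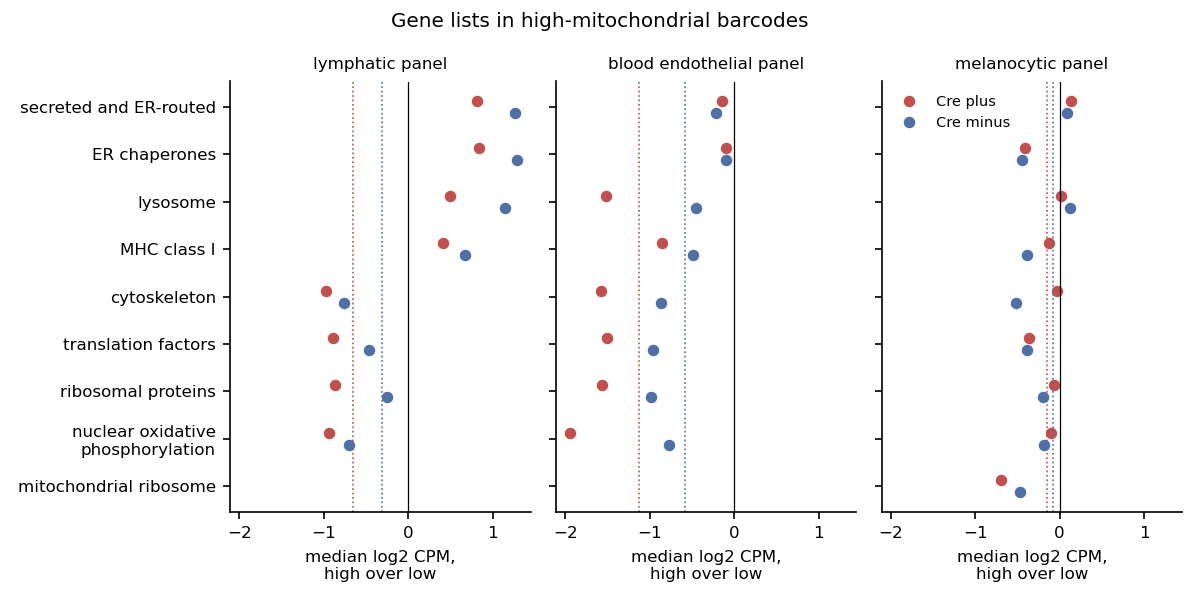
Median log2 ratio of CPM in high-mitochondrial over low-mitochondrial barcodes for gene lists (rows) in the lymphatic, blood vascular and melanoma panels, Cre plus and Cre minus libraries; dotted lines are the medians of all tested genes. In lymphatic barcodes the secretory list lies at 0.81 and 1.26 and the cytoskeleton list at −0.97 and −0.76.

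Identity and other cell types were checked by marker lists. Lymphatic genes outside the panel were kept in lymphatic members: Nrp2, a VEGF-C co-receptor, had 2106 against 1191 CPM in Cre plus and 1495 against 936 CPM in Cre minus, and the integrin gene Itga9 had log2 ratios of 1.18 and 0.98. Of the 16 genes of that list 6 passed and none was called. The list had 848 UMIs in 48 of the 50 Cre plus members and 400 in 22 of the 23 Cre minus members. Blood vascular genes outside the panel, a list that includes Angpt2, were also present. They had 359 UMIs in 47 Cre plus members and 238 UMIs in 21 Cre minus members. Melanoma panel transcripts summed to 148 CPM in Cre plus members (16 UMIs) and 299 CPM in Cre minus members (17 UMIs), log2 ratios of 1.83 and 1.73 over low-mitochondrial barcodes, so they were a larger but still small part of members; their part in the results was not tested. Phagocyte panel genes had 3 UMIs in the Cre plus and 4 in the Cre minus library. Neutrophil and keratinocyte markers had no UMI in either library, which allows up to 27.8 CPM in the Cre plus and 52.8 CPM in the Cre minus library. Haemoglobin and other red cell genes had 399 against 925 CPM in Cre plus and 281 against 827 CPM in Cre minus. Platelet genes had 1 UMI in the Cre plus and 63 in the Cre minus library, of which 57 were in 1 barcode.

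The depth gap between members and the rest bears on these values, so low-mitochondrial lymphatic barcodes were also limited to the members' 10th to 90th percentile of nuclear UMIs (224 in Cre plus, 105 in Cre minus), with all members kept. Of the 12 named higher genes 9 in the Cre plus and 10 in the Cre minus library were then past 2-fold, and of the 12 named lower genes 11 in each library; the signs did not change. In Cre plus AY036118 had a log2 ratio of 0.35 and Cmss1 0.95, so both lost their call. Gm42418 then had log2 ratios of 1.66 in the Cre plus and 1.56 in the Cre minus library, and Camk1d 1.23 and 1.88, so part of their ratios went with depth, while Stab1 had 2.25 and 3.14. The secretory median was 1.02 in both libraries, the cytoskeleton median −1.52 in the Cre plus and −0.94 in the Cre minus library, and the ribosomal protein median −1.65 and −0.86. The level of Malat1 depended on depth too: low-mitochondrial lymphatic barcodes of that depth had 1587 CPM in the Cre plus and 350 CPM in the Cre minus library, and the members 15922 and 8459 CPM.

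Malat1 was thus far from uniform. Against all low-mitochondrial barcodes it had 15922 against 8503 CPM in lymphatic members of Cre plus (log2 ratio of 0.91, 0.84 to 0.97) and 8459 against 6996 CPM in those of Cre minus (0.27, 0.14 to 0.41), neither past 2-fold. Malat1-rich barcodes, with at least 0.1% of all UMIs from this gene, were 62.0% (47.2 to 75.3) of lymphatic members and 52.7% (49.3 to 56.1) of low-mitochondrial barcodes in Cre plus. In Cre minus they were 43.5% (23.2 to 65.5) and 17.4% (12.8 to 22.7). Blood vascular members were nearly all Malat1-rich, 88.5% against 67.3% in Cre plus and 85.0% against 57.5% in Cre minus. For melanoma members the order depended on the comparison. By all UMIs 22.7% (13.3 to 34.7) of members were Malat1-rich, against 40.0% (35.9 to 44.2) of low-mitochondrial barcodes, in Cre plus, and 30.5% (24.0 to 37.6) against 41.6% (38.4 to 44.8) in Cre minus. With the 0.1% taken of nuclear-encoded UMIs the members' shares were 30.3% (19.6 to 42.9) in the Cre plus and 37.4% (30.5 to 44.8) in the Cre minus library, and the intervals overlapped those of low-mitochondrial barcodes. Against low-mitochondrial barcodes of the members' depth, of which 12.4% in the Cre plus and 17.8% in the Cre minus library were Malat1-rich, the members' shares were the higher ones. Summed Malat1 in melanoma members was 15311 against 6457 CPM in Cre plus and 18016 against 6884 CPM in Cre minus, and low-mitochondrial melanoma barcodes of the members' depth had 758 CPM in the Cre plus and 1138 CPM in the Cre minus library. The 5 deepest melanoma members held 58.5% of the nuclear UMIs of the members' pool in the Cre plus and 34.2% in the Cre minus library. They were kept in the comparison at the members' depth, so its 2 pools were not of equal depth. Without them the log2 ratio over all low-mitochondrial barcodes was 0.22 in the Cre plus and 1.59 in the Cre minus library. Of the markers given for these barcodes, mt-Cytb was thus high by rule and Malat1 only in some of them.

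In blood vascular members 605 genes passed the filter, of which 15 (2.48%) were higher and 115 (19%) lower. The median of all was −1.13 in the Cre plus and −0.58 in the Cre minus library, and relative to it 85 were higher and 13 lower. Since Cre plus had 26 members, few single genes are named. Gm42418 had 69683 against 6800 CPM in Cre plus and 49869 against 17402 CPM in Cre minus. Cmss1 had 8742 against 908 CPM in Cre plus and 11814 against 2146 CPM in Cre minus, and Camk1d 4135 against 416 and 3665 against 917 CPM. Both were higher, as in the lymphatic panel, and so was Lars2 (log2 ratios of 2.90 and 1.66). AY036118 was above 0 only in Cre plus (2.26 and −0.14), and Malat1 had 0.94 in the Cre plus and 0.29 in the Cre minus library.

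Ribosomal protein genes held the most lower genes of any list in the blood vascular panel, with 37 of 80 lower and all 80 below 0 in both libraries (median −1.57 in the Cre plus and −0.98 in the Cre minus library). Of 12 cytoskeleton genes 5 were lower (Tmsb10, Vim, Actg1, Pfn1 and Tubb5), with Vim, the intermediate filament vimentin, at 1483 against 4373 CPM in Cre plus and 1439 against 3560 CPM in Cre minus. Of 12 translation factors 5 were lower, among them Eef1a1, which brings tRNAs to the ribosome, at 1260 against 3779 CPM in Cre plus and 1538 against 3444 CPM in Cre minus; the others were Eif1, Rack1, Eef1b2 and Naca. Of 34 nuclear-encoded respiratory chain genes 8 were lower, a share near the 19% of all genes, such as Cox8a of complex IV at 171 against 820 CPM in Cre plus and 271 against 672 CPM in Cre minus. Secretory genes showed no call among 15, with medians of −0.14 in the Cre plus and −0.21 in the Cre minus library. The basement membrane collagen Col4a1 had 3964 against 4184 CPM in Cre plus and 4421 against 4673 CPM in Cre minus, while Sparc had 3609 against 6873 and 6018 against 8168 CPM. Limited to low-mitochondrial barcodes of the members' depth, the secretory median was 0.63 in the Cre plus and 1.25 in the Cre minus library, so its direction depended on that choice.

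Other blood vascular identity genes were mixed. Of 10 that passed outside the panel, 3 were lower: Kcne3, a potassium channel subunit of angiogenic endothelium (210 against 559 CPM in Cre plus, 222 against 642 CPM in Cre minus), and Rgcc (−1.21 and −1.50) and Ly6c1 (−2.42 and −1.28), both named after their values were seen. Kdr, which encodes VEGFR-2, had 1313 against 765 CPM in Cre plus and 1041 against 1060 CPM in Cre minus. Transcripts of pericytes and fibroblasts were fewer in members: the list summed to 578 against 4202 CPM in Cre plus (44 UMIs) and 22.6 against 1508 CPM in Cre minus (5 UMIs). The genes of this list that passed the filter did so through their level in low-mitochondrial barcodes, so nothing is read from how many were called. The mural gene Acta2 had 65.6 against 1480 CPM in Cre plus, and no UMI in members of Cre minus against 264 CPM, at least 19.4-fold lower. Keratinocyte markers had 107 UMIs in 2 blood vascular members of Cre minus, and platelet markers 96 UMIs there, 88 of them in 1 barcode. Their part in the results was not tested.

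Melanoma members formed the deepest pools, with 624717 nuclear UMIs in the Cre plus and 2065742 in the Cre minus library, and 4569 genes passed the filter. Of these 46 (1.01%) were higher and 15 (0.328%) lower, and 6 were past 2-fold in opposite directions in the libraries. The median of all was −0.15 in the Cre plus and −0.08 in the Cre minus library; relative to it 82 were higher and 8 lower. Gm42418 had 17394 against 1689 CPM in Cre plus and 13589 against 1946 CPM in Cre minus. Cmss1 had 1543 against 269 CPM in Cre plus and 1801 against 329 CPM in Cre minus, Camk1d 839 against 119 and 546 against 166 CPM, and Lars2 672 against 104 and 493 against 114 CPM. These 4 genes were therefore higher in members of all 3 panels in both libraries, against all low-mitochondrial barcodes. Against melanoma barcodes of the members' depth, with all members kept, Cmss1 had log2 ratios of 0.77 in the Cre plus and 0.56 in the Cre minus library. Camk1d had 1.59 and 0.62 there, so both lost their call, while Lars2 had 1.38 and 1.10 and Gm42418 2.41 and 1.84.

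Many of the other named higher genes of melanoma members span long stretches of the genome. Il31ra, an interleukin-31 receptor subunit, had 141 against 30.6 CPM in Cre plus and 109 against 29.9 CPM in Cre minus, and Cdk8, a kinase of the Mediator complex, had 203 against 58.3 and 229 against 58.7 CPM. Gphn, which encodes the scaffold protein gephyrin over 458 kb of chromosome 12, had log2 ratios of 1.74 in the Cre plus and 1.26 in the Cre minus library. Npas3, a transcription factor gene of 823 kb, had 1.49 and 1.28, but −0.38 in Cre plus without the 5 deepest members. Maml2, a Notch coactivator, had 1.40 and 1.23, the noncoding Lncpint 1.48 and 1.26, and Rere, a chromatin corepressor, 1.37 and 1.19. In Malat1-poor barcodes, which are 51 of the 66 Cre plus and 130 of the 187 Cre minus members, Npas3 had −2.12 in the Cre plus and −0.74 in the Cre minus library (1 and 6 UMIs), Maml2 −0.93 and −1.66 (3 UMIs in each pool of members) and Rere −1.31 and −0.15 (6 and 26 UMIs), so their direction was that of the Malat1-rich members. With low-mitochondrial barcodes limited to the members' depth, 11 of the 12 named higher genes stayed above 0 in both libraries, but 9 in the Cre plus and 8 in the Cre minus library were past 2-fold, and of the 12 named lower genes 7 and 8; AY036118 did not stay above 0 (−0.12 in the Cre plus and −0.53 in the Cre minus library).

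The lower genes of melanoma members included genes of DNA replication. Hist1h2ae, a replication-dependent histone H2A, had 52.8 against 288 CPM in Cre plus and 133 against 308 CPM in Cre minus. Mcm3, a subunit of the replicative helicase, had 20.8 against 72.3 CPM in Cre plus and 27.1 against 62.4 CPM in Cre minus. Both were lower in members of both libraries. Of 20 replication genes 14 passed, 13 of them below 0 in both, and 2 were lower, Mcm3 and Mcm4 (−1.17 and −1.86, named after its values were seen); the median was −1.22 in the Cre plus and −0.70 in the Cre minus library. Pcna, the sliding clamp of DNA polymerase, had 64.0 against 141 CPM in Cre plus and 82.3 against 137 CPM in Cre minus. Rfc3, which loads that clamp, had log2 ratios of −1.43 and −1.14. Of 25 mitosis genes 21 passed and none was called, with medians of −1.44 in the Cre plus and −0.02 in the Cre minus library; without the 5 deepest members the medians, over the 10 genes then past the filter, were −0.70 and −0.28. Top2a, a topoisomerase, had 70.4 against 171 CPM in Cre plus and 196 against 164 CPM in Cre minus. Other lower genes were Srm, the spermidine synthase (−1.07 and −1.54), Npm3, a nucleolar chaperone (−1.43 and −1.08), Eif4a3, a subunit of the exon junction complex (−1.32 and −1.02), the neuronal tubulin Tubb3 (−1.28 and −1.04), the intermediate filament gene Prph (−1.48 and −1.47) and the MHC class II gene H2-Aa (−1.35 and −1.14). Prph and H2-Aa had 0.094 and 0.43 in Cre minus at a mitochondrial threshold of 8%, and 0.42 and 0.093 in Malat1-poor barcodes of Cre plus, so their direction was not kept.

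Genes for mitochondrial proteins made in the cytosol gave no call in the lists of the mitochondrial ribosome and the respiratory chain in melanoma members. Of 30 mitochondrial ribosome genes all passed, none was called and 27 were below 0 in both libraries, with a sum of 4123 against 5706 CPM in Cre plus and 4214 against 5636 CPM in Cre minus. Their median was −0.69 in the Cre plus and −0.47 in the Cre minus library, and thinned to equal depth, where 5 of them passed, −0.24 and −0.29. The matrix chaperone Hspd1 had 499 against 1000 CPM in Cre plus and 486 against 897 CPM in Cre minus, and its partner Hspe1 had 611 against 1127 and 684 against 1074 CPM. Respiratory chain subunits lay near the median of all genes: of 79 that passed none was called, with medians of −0.10 in the Cre plus and −0.19 in the Cre minus library, and of −0.01 and −0.32 thinned to equal depth. Cox6c had 2662 against 2089 CPM in Cre plus and 2480 against 2292 CPM in Cre minus. Of 7 heat shock genes that passed all were below 0 in both libraries and none was called (medians −0.68 and −0.49); Hspa8 had 735 against 1442 CPM in Cre plus and 949 against 1380 CPM in Cre minus. Chaperones of the endoplasmic reticulum, which stood above the other genes in lymphatic members, had medians of −0.41 in the Cre plus and −0.45 in the Cre minus library here, with none of 15 called. Against low-mitochondrial barcodes of the members' depth, with all members kept, the chaperone medians were 0.52 and 0.0019. Thinned to equal depth, where 5 of these genes passed, they were 0.03 and −0.28, so the direction depended on that choice. Melanoma identity was kept: of 14 genes that passed outside the panel none was called, and Gpnmb, a melanosome glycoprotein, had 2457 against 2172 CPM in Cre plus and 2510 against 2186 CPM in Cre minus. Red cell genes had 357 against 532 CPM in Cre plus and 5806 against 1430 CPM in Cre minus, where 11160 of 11993 UMIs were in 1 barcode. Platelet genes had 48.0 against 2.17 CPM in Cre plus (30 UMIs in 5 barcodes) and 69.7 against 5.63 CPM in Cre minus (144 UMIs in 29 barcodes); their part in the results was not tested.

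The melanoma barcodes with at least 50% mitochondrial UMIs had more UMIs in all but fewer nuclear-encoded ones. They had a median of 11226.5 UMIs in the Cre plus and 9983.5 in the Cre minus library, against 3978.5 and 5336 in the melanoma members at 10 to 50% (48 and 119 barcodes), but 1977.5 and 2099.5 nuclear-encoded UMIs against 3339 and 4457, and 743 and 814.5 genes against 1299.5 and 1507. Ribosomal protein genes made up 28.0% of their nuclear UMIs in the Cre plus and 27.0% in the Cre minus library, against 17.7% and 15.3% in the members at 10 to 50%. Set against low-mitochondrial melanoma barcodes, 410 genes passed the filter at 50% or more, of which 19 were higher and 120 lower, with a median of −0.71 in the Cre plus and −0.68 in the Cre minus library. The ribosomal protein median was 0.44 in both libraries, above 0, and that of nuclear-encoded respiratory chain genes was −0.81 in the Cre plus and −0.78 in the Cre minus library, near the median of all genes. The melanoma panel itself was less abundant there, at 9471 against 15554 CPM in Cre plus and 12288 against 18580 CPM in Cre minus. Dst, which encodes the cytoskeletal linker dystonin, had log2 ratios of 2.01 and 2.24, and Actb had −2.12 and −1.64. At 10 to 50% the count was 39 higher and 12 lower among 4263 genes.

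Across steps of mitochondrial share, Gm42418 was mostly higher at the higher steps in the endothelial panels. In lymphatic barcodes of Cre plus it made up 0.358% of nuclear UMIs at 0 to 2% mitochondrial share, 1.42% at 5 to 10%, 2.75% at 15 to 20% and 7.20% at 30 to 50% (9 barcodes). In Cre minus the values were 0.510%, 1.28%, 1.77% and 6.48% (4 barcodes). In blood vascular barcodes it reached 11.4% in the Cre plus and 6.84% in the Cre minus library at 20 to 30%, but it was 0.603% in the 2 Cre plus barcodes at 15 to 20%. Lymphatic barcodes at 50% or more had 4.89% in Cre plus (1 barcode) and 5.19% in Cre minus (2 barcodes), below the step before. In both endothelial panels and libraries Gm42418 was higher at 5 to 10% than at 0 to 2%, that is, already below the threshold. Malat1 had no common course: in melanoma barcodes of Cre minus it was higher at each step up to 30 to 50%, being 0.301% at 0 to 2%, 2.91% at 30 to 50% and 1.91% above, while in those of Cre plus it was 1.88% at 10 to 15% and 0.376% at 15 to 20%. The ribosomal protein share in blood vascular barcodes of Cre minus was 18.5% at 0 to 2%, 9.22% at 2 to 5% and 4.33% at 5 to 10%. At 10 to 15% it was 7.47%, so it was already low below the threshold. In Cre plus it was 6.15% at 5 to 10% and 3.70% at 10 to 15%. Each step above 10% holds under 20 lymphatic barcodes in each library, and values there rest on few cells.

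**Figure D5:**
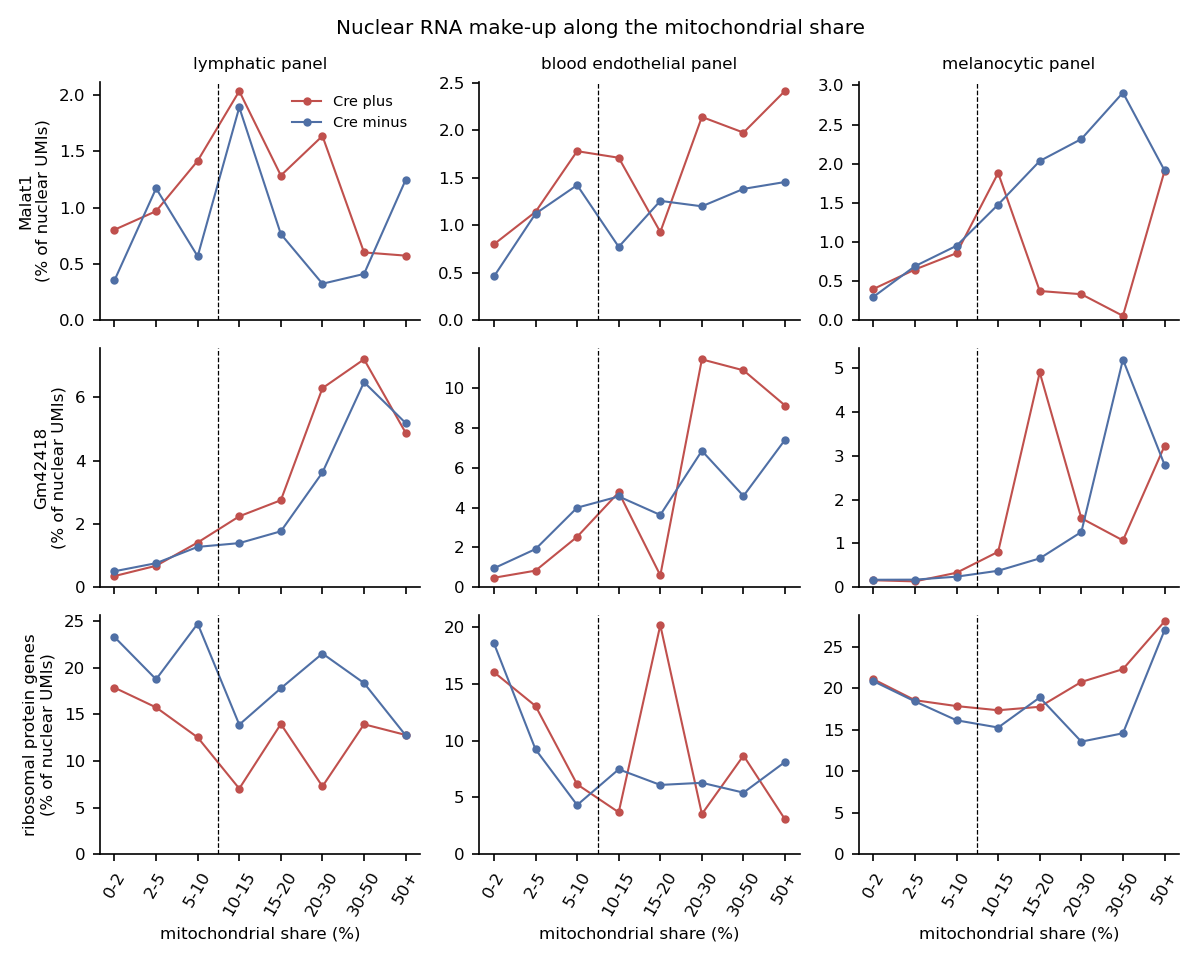
Malat1, Gm42418 and ribosomal protein genes as percent of pooled nuclear-encoded UMIs (vertical axes) by step of mitochondrial share (horizontal axis, percent), for the lymphatic, blood vascular and melanoma panels in the Cre plus and Cre minus libraries. Gm42418 in lymphatic barcodes reaches 7.20% in the Cre plus and 6.48% in the Cre minus library at 30 to 50%, and Malat1 follows no common course.

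Taken as a group, the longest of the genes tested had the highest median ratio in all panels. Single genes departed from this, as Gm42418, of 1.83 kb, was among the higher genes of each panel. The higher genes of lymphatic members had a median span of 47.4 kb and the lower ones 7.11 kb, against 8.76 kb for all genes tested. The higher genes spanned 202 kb in both the blood vascular and the melanoma panel, and the lower ones 4.76 and 8.49 kb. When the genes tested were ranked by span and cut into 4 equal groups, the longest group had a median log2 ratio of 0.67 in the Cre plus and 0.35 in the Cre minus library in the lymphatic panel, 0.79 and 0.42 in the blood vascular panel, and 0.37 and 0.58 in the melanoma panel. The shortest group had −0.86 and −0.35, −1.68 and −0.91, and −0.35 and −0.33 in the same panels. The longest group was thus above the shortest in each panel and library, but the ratio did not rise with span at each step. In lymphatic barcodes of Cre minus the groups before the longest had −0.35, −0.43 and −0.56, falling with span. In melanoma barcodes of Cre plus the shortest group and the next were level, at −0.35 and −0.36. Ribosomal protein genes are short, so span and function are not independent here. The span groups were not compared within Malat1-poor members, where the long genes Npas3, Maml2 and Rere lay below 0 in melanoma barcodes, nor without the deepest members.

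Between genotypes, members can be compared only as 1 library against 1, with the same ratio in low-mitochondrial barcodes beside it. In lymphatic members the MHC class I list had 5242 CPM in the Cre plus and 8266 CPM in the Cre minus library, a log2 ratio of −0.66 (−0.84 to −0.48), against −0.40 in low-mitochondrial lymphatic barcodes. B2m, the invariant chain of MHC class I, had 1679 CPM in the Cre plus and 3306 CPM in the Cre minus library, −0.98 against −0.65. MHC class II genes had 1 UMI in the Cre plus and 21 in the Cre minus library, and in low-mitochondrial barcodes their log2 ratio was −3.67. Members and low-mitochondrial barcodes had the same sign for MHC class I and class II genes. Without the 5 deepest members of each library the MHC class I ratio was −0.36 (−0.60 to −0.11). MHC class II genes then had 1 UMI in the Cre plus and 6 in the Cre minus library. With all members kept, their 21 Cre minus UMIs were in 6 barcodes. Interferon-inducible GTPases had 42 UMIs in the Cre plus and 19 in the Cre minus library, a log2 ratio of 0.22 (−0.59 to 1.09). In low-mitochondrial barcodes it was −0.84, and the interval of members holds 0 and lies above that value. Without the 5 deepest members of each library the ratio was −0.21 (−1.19 to 0.83), an interval that holds −0.84, so the gap was not kept. Type I interferon genes had 2227 CPM in the Cre plus and 1301 CPM in the Cre minus library (0.77, 0.39 to 1.17, against 0.17), and interferon receptor genes 1132 and 686 CPM (0.72, 0.19 to 1.28, against 0.14). In blood vascular members interferon-inducible GTPases had 1956 CPM in the Cre plus and 543 CPM in the Cre minus library (1.85, 1.49 to 2.21, against 0.89). The 5 deepest of the 26 Cre plus members held 49.45% of the nuclear UMIs of that pool, and this ratio was not computed without them. Ctla2a, a cysteine protease inhibitor, had 436 CPM in the Cre plus and 2462 CPM in the Cre minus library (−2.50, against −0.83), and Fth1, the ferritin heavy chain, 1253 and 4485 CPM (−1.84, against −0.91). Neat1, another noncoding RNA kept in the nucleus, had 59 UMIs in the Cre plus and 4 in the Cre minus library (2.96), against −0.66 in low-mitochondrial barcodes. Ribosomal protein genes had 96718 CPM in the Cre plus and 178505 CPM in the Cre minus library (−0.88, against −0.32).

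In melanoma members, whose tumor cells are the same line in both hosts, mitosis genes summed to 746 CPM in the Cre plus and 1630 CPM in the Cre minus library, a log2 ratio of −1.13 (−1.27 to −0.99), against 0.24 in low-mitochondrial melanoma barcodes. Without the 5 deepest members of each library the sums were 1410 CPM in the Cre plus and 1518 CPM in the Cre minus library, a log2 ratio of −0.11 (−0.27 to 0.05), so the difference rested on those barcodes. Replication-dependent histones had 277 CPM in the Cre plus and 595 CPM in the Cre minus library (−1.10, against −0.01), and −0.80 without the 5 deepest members. Whether these ratios differ between members and low-mitochondrial barcodes was not tested. Mgll, a monoacylglycerol lipase, had 624 CPM in the Cre plus and 2669 CPM in the Cre minus library (−2.10, against −0.47). Several of the most unequal genes rested on few barcodes: Stab2, a scavenger receptor, had 65 UMIs in the Cre plus library, all in 1 barcode, and 1 in the Cre minus library. Cck, a neuropeptide gene, was more widely spread, with 6 UMIs in 4 barcodes of Cre plus and 1090 in 35 barcodes of Cre minus. Its log2 ratio was −5.78, against −0.59 in low-mitochondrial melanoma barcodes, and was not computed without the 5 deepest members.

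The phagocyte panel had 10 members, 2 in the Cre plus and 8 in the Cre minus library. Their median depth was 8933.5 UMIs in the Cre plus and 2656 in the Cre minus library, against 26893 and 23003.5 in low-mitochondrial phagocyte barcodes. The 2 Cre plus barcodes held 391 UMIs of further macrophage genes. Among the 8 Cre minus barcodes, 1 held 1002 of the 1003 neutrophil marker UMIs and 5 held 306 platelet marker UMIs, so this small group is not of a kind and was not compared gene by gene.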

How the data were processed

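The deposited count tables (UMIs per gene and barcode, 32285 genes) were made by the authors with Cell Ranger 7.0.0 on mm10, per the submitters' processing notes; the annotation and strand setting are not given in the sources used here. Barcodes were taken as deposited. Python 3.11.15 with numpy 2.4.6, scipy 1.17.1 and pandas 2.3.3 summed UMIs, and matplotlib 3.10.9 drew the plots. Shares carry 95% Clopper-Pearson intervals and CPM ratios exact conditional binomial ones; a count of 0 was set to a floor of 3. Calling was checked on simulated counts of whole pools, drawn without differences between barcodes. That check therefore does not cover calls that rest on a few deep barcodes. With 1 library per genotype no test was possible. Genes named are the 12 highest and 12 lowest called genes of the lymphatic and melanoma panels by the interval bound nearest 0, the mitochondrial mRNAs, Malat1, Neat1 and Ifngr1, up to 4 members of each list by UMIs, and the 6 highest and 6 lowest between genotypes; mitochondrial, ribosomal protein, haemoglobin, panel, Xist, Y-linked and Gm or Rik genes were excluded from the ranking. Gm42418 was added as a list member. Gene positions were matched by ID to GENCODE M21 (mm10) for 32235 of 32285 genes (99.8%), and coordinates in the text are from it. The 51 lists held 656 genes, 2 without a row. Members and lists were chosen with earlier results of these data known. The ribosomal protein list, the joined respiratory chain list and the settings that leave out the 5 deepest barcodes or split melanoma members at 50%, and the list sums and Malat1-rich shares at matched depth or over nuclear-encoded UMIs, were chosen after seeing the data.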

Additional observations from a re-analysis of the deposited data

Results flagged for a closer look

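The summed level of some lists lay on opposite sides of the low-mitochondrial level in different panels, with both libraries of a panel on the same side; these differences between panels were not tested. Genes of the unfolded protein response had log2 ratios of 0.77 in the Cre plus and 1.35 in the Cre minus library in lymphatic barcodes, and −0.37 and −0.42 in melanoma barcodes. Against low-mitochondrial barcodes of the members' depth, with all members kept, the melanoma values were 0.58 in the Cre plus and 0.15 in the Cre minus library. The opposition was thus not kept in that setting. Thinned to equal depth, the melanoma medians of this list were 0.03 in the Cre plus and −0.28 in the Cre minus library, over 5 genes. Without the 5 deepest members they were −0.27 and −0.73, over 11 genes. MHC class I genes had 0.32 in the Cre plus and 0.57 in the Cre minus library in lymphatic barcodes, and −0.83 and −0.45 in blood vascular ones. At the members' depth they had 0.00020 in the Cre plus and 0.26 in the Cre minus library in lymphatic barcodes, and −1.17 and −0.52 in blood vascular ones. Secretory genes had 0.86 in the Cre plus and 1.34 in the Cre minus library in lymphatic barcodes and 0.13 and 0.11 in melanoma ones, and −0.40 and −0.22 in blood vascular ones. At the members' depth the blood vascular values were 0.35 in the Cre plus and 0.52 in the Cre minus library, above 0 as in the other panels. Thinned to equal depth, the blood vascular medians of this list were −0.24 and −0.20, over 5 genes. The medians of all blood vascular genes, against all low-mitochondrial barcodes, were below 0 at −1.13 and −0.58.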

How the results depend on the processing

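No paired analysis was possible because each genotype has 1 library and the labels give no replicate numbers. The difference in the share of members, Cre plus minus Cre minus, stayed negative under every threshold, gene minimum and panel rule tried (−6.74 to −9.82 points over all barcodes, −0.792 to −4.18 lymphatic, −9.29 to −15.8 blood vascular); in melanoma it was −6.25, and −9.04 with at least 200 genes. The number of called genes (55 lymphatic, 130 blood vascular, 61 melanoma) depended on many choices, in the same order of panels: CPM over all UMIs gave 128, 304 and 545; thinning 19, 83 and 9; depth-matched low-mitochondrial barcodes 122, 396 and 648; Malat1-poor barcodes alone 14, 1 and 19; an expected count of 5 242, 432 and 169, and of 50 9, 68 and 23; Cre plus alone 276, 393 and 437; Cre minus alone 101, 382 and 517; a 1.5-fold limit 155, 342 and 607; leaving out the 5 deepest members 26, 79 and 18. An 8% threshold gave 232 blood vascular and 26 melanoma genes, a 15% threshold 30 lymphatic genes, the mean of barcode CPM 228 blood vascular and 176 melanoma genes, Malat1-rich barcodes alone 232 and 114, and melanoma members at 50% or more 139. The cause was not tested, beyond fewer barcodes or genes entering the smaller settings. In the depth-matched setting all members were kept, also those deeper than the low-mitochondrial barcodes, so its pools were not of equal depth.

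Of 3079 values recomputed, 1799 counted as the same, 1257 moved and 23 reversed. A ratio was the same if it shifted by no more than the distance from the middle of its counting interval to its end. For list medians the interval was that of the list sum, and numbers of called genes were the same within 1.5-fold. All reversals but 5 were in melanoma genes. At 8%, H2-Aa had 0.43 and Prph 0.094 in Cre minus, and at 15% Npas3 had −1.53 in Cre plus. Npas3 also had −0.38 in Cre plus without the 5 deepest members and −0.55 at 50% or more, where Srm had 0.53 in Cre plus. Thinned, Nfyb had 0.23 in Cre plus, and at matched depth AY036118 had −0.12 in Cre plus and −0.53 in Cre minus. Among Malat1-poor barcodes Malat1 had −0.29 in Cre plus, H2-Aa 0.093 and Prph 0.42 in Cre plus, and in Cre plus and Cre minus Npas3 had −2.12 and −0.74, Maml2 −0.93 and −1.66, and Rere −1.31 and −0.15. In other panels, lymphatic Ctsd had −0.034 in Malat1-rich barcodes of Cre minus. Blood vascular Malat1 (−0.19), the cytoskeleton median (0.17) and the translation median (0.12) turned in Malat1-poor barcodes of Cre plus, which are 3, and the MHC class I median was 0.28 in Cre plus relative to all genes. Sign changes of values under 1.5-fold, 73 in all, were counted and not listed, a limit set after seeing the data. Among the unlisted changes, the median of the unfolded protein response in melanoma barcodes was 0.52 in the Cre plus and 0.0019 in the Cre minus library at matched depth.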
